A study of Mus musculus with 8 samples.

Results

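The genes described here are 33 mouse genes of amino acid supply and tRNA charging that are linked to the transcription factor ATF4. They comprise ATF4 itself with 3 stress genes (Atf4, Ddit3, Trib3, Chac1), 5 enzymes of serine, glycine and asparagine synthesis (Phgdh, Psat1, Psph, Shmt2, Asns), 4 transporter genes (Slc7a5, Slc3a2, Slc7a11, Slc1a5) and 20 genes of cytosolic aminoacyl-tRNA synthetases. The genes were taken by name and not by a cut on their values, though earlier results of these data were known. All 33 were found among the 17488 genes of the deposited table, and all 33 passed the filter on low values. The 8 mice were all homozygous for the TH-MYCN transgene, in which the tyrosine hydroxylase promoter drives human MYCN, and RNA of their whole neuroblastomas was sequenced. Treatment started at about 6 weeks of age, once ultrasound showed a tumour of 200 to 300 mm3. Panobinostat, an inhibitor of histone deacetylases, was given at 5 mg/kg to 4 mice and vehicle to the other 4, in both groups as 2 doses separated by 24 h, and tumours were collected 4 h after the second dose. Each library came from 1 animal and holds tumour and stroma cells together.

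The integrated stress response is a pathway in which kinases that sense amino acid shortage, unfolded protein, haem shortage or double-stranded RNA phosphorylate the translation factor eIF2alpha. Most translation then slows while ATF4 protein is made, since ATF4 is controlled largely at translation, and the level of its mRNA does not report the amount of protein. ATF4 binds C/EBP-ATF response elements and raises genes that make, import and charge amino acids onto tRNA. The MYC family is known to act on many of the same genes, and tumours driven by MYCN are known for a high demand for amino acids.

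The core of the C/EBP-ATF response element, TGATGNAA, was searched on both strands of the promoters that RefSeq gives for GRCm38.p6, from 250 bases before to 50 bases after each start site. Of the 33 genes 24 had a promoter entry, and 9 of these 24 (37.5%) held the motif, with 11 matches in all. Slc7a5, Slc1a5, Cars, Lars, Rars, Vars, Wars, Hars and Nars had no entry. Of all 27025 genes with an entry 4.51% and of all 32851 promoters 3.97% held it. The matches below are shown because ATF4 is known to bind elements with this core. They are matches of letters, and binding at them was not measured. Each is printed 5′ to 3′ on the strand that carries the motif, with the motif in capitals and 10 bases on either side.
Trib3, chr2:152344029-152344056, plus strand: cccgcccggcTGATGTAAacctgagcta
Chac1, chr2:119351039-119351066, minus strand: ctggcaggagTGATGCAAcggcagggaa
Asns, chr6:7693215-7693242, minus strand: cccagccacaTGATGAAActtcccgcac
Slc7a11, chr3:50443662-50443689, minus strand: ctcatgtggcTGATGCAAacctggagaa
Slc7a11, chr3:50443643-50443670, plus strand: ggctgcatgaTGATGCAAattctccagg
Iars, chr13:49682127-49682154, minus strand: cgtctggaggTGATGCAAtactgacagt
Yars, chr4:129189896-129189923, plus strand: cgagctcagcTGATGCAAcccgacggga
Aars, chr8:111033841-111033868, minus strand: cagagcgctcTGATGAAAagtgacccgc
Gars, chr6:55037961-55037988, minus strand: gcccggtgcaTGATGAAAtagcgcagcc
Tars, chr15:11399656-11399683, plus strand: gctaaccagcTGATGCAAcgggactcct
The pair in Slc7a11 lies on opposite strands and its printed windows overlap by some bases. The motif lay between 193 bases before the start site, in Chac1, and 15 bases after it, in Trib3. Distances here and below are from the RefSeq start sites, which can differ from the GENCODE M21 gene bounds given below.

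Libraries held 18664066 to 23830026 reads over the listed genes, and 1 CPM (a read count scaled to the authors' effective library size) stood for 19.3 to 22.6 reads. Markers of other cells moved with treatment. Among all tested genes 31.2% were higher and 32.4% lower, by the call defined in the next paragraph. Of 12 macrophage markers 10 were higher and none lower, with summed levels of 792 to 1499 CPM in vehicle and 3667 to 6411 CPM in panobinostat libraries. All 10 fibroblast and mural markers were higher (1510 to 4872 CPM against 8382 to 15192 CPM), and 7 of 13 sympathoadrenal markers of the tumour cells were lower and none higher (3048 to 3566 CPM against 1475 to 2041 CPM). None of these 13 genes was at 0 reads in any library. Markers of organs beside the tumour were higher in the panobinostat libraries, by amounts that differed widely between these libraries. The 13 liver markers summed to 25.0 to 36.4 CPM in vehicle libraries and to 78.6, 75.8, 939 and 12093 CPM in panobinostat libraries 1 to 4, with 4 of 4 tested markers higher. The 11 measured pancreas markers summed to at most 16.9 CPM and to 17.4, 803, 20.9 and 4920 CPM, with 1 of 2 tested markers higher. The 8 adrenal cortex markers summed to 9.21 to 11.4 CPM and to 722, 39.6, 1013 and 2756 CPM, with 5 of 5 tested markers higher and Cyp11b2 at 0 in all vehicle libraries. The 6 measured kidney markers reached 854 CPM in panobinostat library 3 and at most 17.7 CPM elsewhere, with 2 of 3 tested markers higher. Higher as well were 6 of 6 adipocyte and 6 of 8 Schwann cell markers. So were 1 of 2 tested T and NK cell and 2 of 5 tested B and plasma cell markers. These T, NK, B and plasma cell counts rest on few genes and are not far from the 31.2% of all tested genes. No tested marker of these lists was lower. In such whole tumours fewer cells of a type and less RNA per cell cannot be told apart, and the part of these cells in the results below was not tested. Counts are also given without panobinostat libraries 3 and 4. That does not remove such tissue, since library 1 held 722 CPM of adrenal cortex markers and library 2 held 803 CPM of pancreas markers.

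Most of the genes were lower after panobinostat. Changes are log2 differences between group means (panobinostat minus vehicle) from a limma fit to 16157 genes, called at a Benjamini-Hochberg adjusted p below 0.05. Of the 33 genes 20 were lower and 3 were higher (Ddit3, Phgdh and Slc1a5), while 63.7% of all tested genes were called, 32.4% as lower and 31.2% as higher. The median change of the 33 was -0.63, against -0.02 over all tested genes. In 18 of the 33 every panobinostat value lay below every vehicle value and in 3 every one lay above, against 31.2% and 28.5% of tested genes. Without panobinostat libraries 3 and 4, 19 were lower and 3 higher, against 25% and 23.4% of tested genes. Most changes were small. Against a 1.5-fold change, 2 genes were lower (Vars and Gars) and 2 higher (Phgdh and Slc1a5), where 13.5% and 17.3% of tested genes passed. Quantile normalization moved the median to -0.39, and the median of all tested genes to -0.14.

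**Figure D1:**
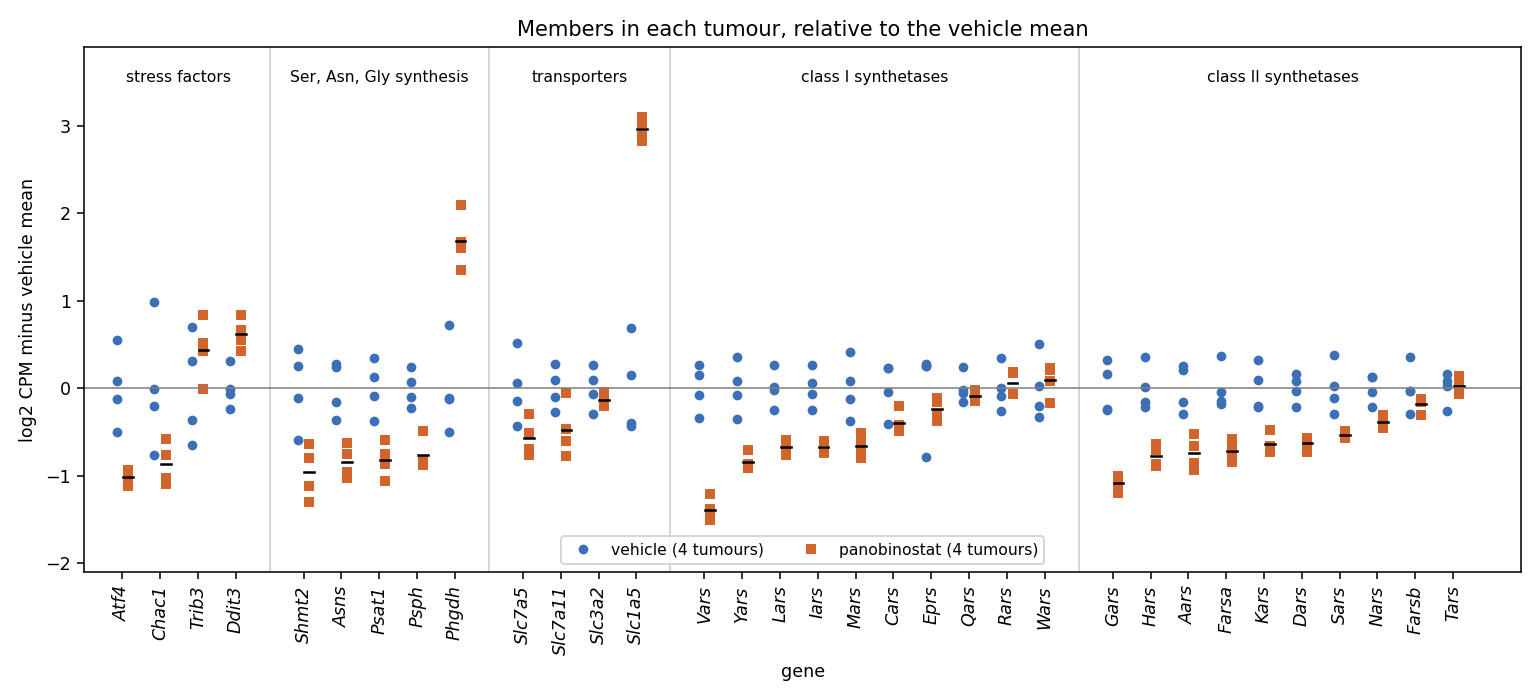
Log2 CPM of each of the 33 genes in each tumour, minus the mean of the 4 vehicle tumours of that gene (circles vehicle, squares panobinostat, short lines the mean of the 4 panobinostat tumours). Slc1a5 and Phgdh lie far above their vehicle tumours, and Vars and Gars lie farthest below without overlap.

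Transcripts of Atf4 were lower and those of its partner Ddit3 higher. Atf4 (chromosome 15, 80255184 to 80257541, mm10) read 121, 251, 157 and 181 CPM in vehicle tumours 1 to 4 and 89, 78.7, 82.7 and 89.2 CPM in panobinostat tumours 1 to 4. The groups did not overlap, and the panobinostat tumours lay close together while vehicle tumour 2 was high. The change was -1.02 (SE 0.19, n = 4 per group, limma adjusted p = 0.00143). Ddit3, which encodes the stress factor CHOP, read 11.2, 13.2, 16.4 and 12.7 CPM with vehicle and 19.4, 23.6, 21 and 17.8 CPM with panobinostat. Here every panobinostat tumour was higher, by 0.62 (SE 0.16, limma adjusted p = 0.00732). Quantile normalization ended this call (0.36, adjusted p = 0.106). Exons of Ddit3 share 68 bases with those of Mars on the opposite strand, and whether counting used strand is not given in the sources used here, so reads in such overlaps cannot be told apart.

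The remaining stress genes were close to the detection filter. Trib3, a pseudokinase that feeds back on ATF4, read 2.72, 3.55, 1.71 and 1.39 CPM with vehicle and 2.93, 3.91, 2.18 and 3.13 CPM with panobinostat. These ranges overlapped, and the change of 0.44 had a 95% confidence interval of -0.32 to 1.21. Chac1, a glutathione-degrading enzyme and sensitive ATF4 target, read 3.56, 12, 6.01 and 5.27 CPM with vehicle and 2.98, 2.82, 3.56 and 4.05 CPM with panobinostat. Vehicle tumour 2 stood well above the other tumours and vehicle tumour 1 lay inside the panobinostat range. The change of -0.87 (SE 0.35) missed the threshold (limma adjusted p = 0.0529). It passed with median centring, quantile normalization or library weights and without vehicle library 1 (-1.12, adjusted p = 0.0121, range over 18 alternatives 0.00498 to 0.118).

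In amino acid synthesis 4 of 5 genes were lower and 1 higher, against 32.4% and 31.2% of all tested genes. All 5 pairs of groups were free of overlap, as were those of 59.7% of all tested genes. Phgdh, which encodes the first enzyme of the serine pathway (chromosome 3, 98313170 to 98339990), read 4.79, 8.55, 3.66 and 4.75 CPM with vehicle and 13.2, 22.1, 16.4 and 15.7 CPM with panobinostat. The lowest panobinostat tumour exceeded the highest vehicle tumour. The level was 3.21-fold higher (log2 change 1.68, SE 0.28, limma adjusted p = 6.0e-04). Both later steps of the same pathway were lower. Psat1, the transaminase of the second step, read 188, 267, 229 and 309 CPM with vehicle and 116, 133, 145 and 161 CPM with panobinostat. Psph, the phosphatase that releases serine, read 17.5, 19.7, 16 and 22.2 CPM with vehicle and 10.2, 10.4, 13.3 and 10.5 CPM with panobinostat. In both the groups stood apart, with panobinostat tumour 3 above its 3 fellows for Psph. The changes were -0.82 (SE 0.16, adjusted p = 0.00179) for Psat1 and -0.76 (SE 0.16, adjusted p = 0.0023) for Psph in limma. Exons of Psph share 452 bases with Cct6a on the opposite strand.

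The serine pathway genes are also given as ratios within each tumour, which do not depend on how libraries are scaled. The log2 ratio of Psat1 to Phgdh was 5.29, 4.96, 5.97 and 6.03 in vehicle tumours and 3.14, 2.59, 3.14 and 3.36 in panobinostat tumours. The ratio of Psph to Phgdh was 1.87, 1.20, 2.13 and 2.22 with vehicle and -0.38, -1.08, -0.30 and -0.59 with panobinostat. Phgdh thus passed from below Psph to above it in CPM. The differences were -2.50 and -2.44. Since Phgdh was higher and its partners lower without overlap, these ratios had to separate the groups, and no test is drawn from them. Both are still counted among the 19 pairs adjusted together below. Per kilobase of exon, the level of Phgdh in vehicle tumours was 2.19 ± 0.86 CPM and that of Psat1 58.3 ± 12.2 CPM (SD, n = 4). With panobinostat these levels were 6.79 ± 1.51 and 32.7 ± 4.43 CPM per kilobase.

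Shmt2, the mitochondrial enzyme that makes glycine and one-carbon units from serine, read 115, 169, 82.6 and 148 CPM with vehicle and 57.1, 50.3, 71.4 and 80 CPM with panobinostat. The gap between the groups was narrow, from 80 to 82.6 CPM. Its change was -0.96 (SE 0.23, limma adjusted p = 0.00522). Asns makes asparagine and carries a printed motif 23 bases before its RefSeq start site. By the GENCODE M21 bounds that motif lies within the gene. Asns read 76.4, 119, 87.7 and 116 CPM with vehicle and 48, 50.3, 58.2 and 63.2 CPM with panobinostat. Vehicle tumours 1 and 3 were the lowest of their group and still lay above all panobinostat tumours. Asns changed by -0.84 (SE 0.16, limma adjusted p = 0.00154).

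Of the 4 transporter genes 1 was higher and 1 lower, against 31.2% and 32.4% of all tested genes. Slc1a5, the importer of glutamine and other neutral amino acids (chromosome 7, 16781340 to 16798274), had the largest change of the 33. It read 25.8, 17.7, 11.8 and 12.1 CPM with vehicle and 118, 137, 131 and 113 CPM with panobinostat. The groups were far apart, and vehicle tumour 1 was the highest of its group. Slc1a5 was 7.81-fold higher (log2 change 2.96, SE 0.24, limma adjusted p = 1.21e-05). Vehicle tumour 1 was also the highest vehicle library in the summed markers of fibroblasts (4872 CPM), adipocytes (570 CPM) and macrophages (1499 CPM). Every panobinostat library held more of each, at least 8382, 872 and 3667 CPM. The part of these cells in the Slc1a5 levels was not tested. Without vehicle library 1 Slc1a5 rose by 3.20 on the log2 scale, and without panobinostat libraries 3 and 4 by 3.00.

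Neither of the 2 members that encode light chains was called higher. Slc7a5 encodes LAT1, which imports leucine and other large amino acids, and it read 162, 256, 132 and 187 CPM with vehicle and 111, 105, 125 and 145 CPM with panobinostat. Panobinostat tumour 4 lay above vehicle tumour 3, so the groups overlapped. The change was -0.57 (SE 0.19, limma adjusted p = 0.0289), a call that was lost without panobinostat library 1, 2 or 3 or without vehicle library 2 or 4 (adjusted p from 0.0525 to 0.0773), and with read totals or quantile normalization (range over 19 alternatives 0.00414 to 0.144). Slc3a2, the heavy chain that brings these carriers to the membrane, read 126, 157, 107 and 140 CPM with vehicle and 114, 120, 127 and 116 CPM with panobinostat. All panobinostat values fell inside the vehicle range, and the change of -0.14 had a 95% confidence interval of -0.41 to 0.13. Slc7a11, the cystine importer, read 6.43, 5.61, 7.25 and 4.98 CPM with vehicle and 5.8, 3.5, 3.94 and 4.36 CPM with panobinostat. Only panobinostat tumour 1 reached the vehicle range. Its change was -0.48 with a 95% confidence interval of -0.97 to 0.02, and without panobinostat library 1 it was -0.62 and passed, as it did with median centring, quantile normalization or library weights (limma adjusted p = 0.0404, range over 19 alternatives 0.00173 to 0.309). The log2 ratio of Slc7a5 to Slc3a2 differed by -0.43 and that of Slc7a11 to Slc3a2 by -0.34 between the groups, and neither passed (exact permutation, adjusted p = 0.0776 and 0.302).

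Aminoacyl-tRNA synthetases join each amino acid to its tRNA, and 14 of the 20 cytosolic genes were lower and none higher. Their median change was -0.64. In 13 of the 20 every panobinostat value lay below every vehicle value, against 31.2% of all tested genes. These transcripts are abundant, and abundant genes were lower more often: among the 3846 tested genes with a mean at or above that of Cars, the least abundant of the 20 in CPM, 50.7% were lower and 20% higher. Without panobinostat libraries 3 and 4, 13 were lower and none higher, against 25% and 23.4% of all tested genes. Without vehicle library 1 the numbers were 15 and none, where 63.7% of all tested genes were called, 32.2% as lower and 31.5% as higher.

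Vars, for valine, had the largest decrease of the 33 genes. Vars (chromosome 17, 35000987 to 35016322) read 394, 460, 329 and 501 CPM with vehicle and 149, 146, 160 and 180 CPM with panobinostat. The lowest vehicle tumour was far above the highest panobinostat tumour. Vars was 2.63-fold lower with panobinostat (log2 change -1.39, SE 0.14, limma adjusted p = 3.6e-05). Gars, for glycine (chromosome 6, 55038007 to 55079500 in GENCODE M21), has its motif 30 bases before its RefSeq start site, which differs from that gene start. Its levels were 273, 364, 274 and 407 CPM with vehicle and 150, 141, 161 and 162 CPM with panobinostat. The groups were again well apart, and the panobinostat tumours spanned a narrow range. Gars was 2.12-fold lower with panobinostat (log2 change -1.08, SE 0.14, limma adjusted p = 1.58e-04).

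Of the other called genes, Yars for tyrosine read 129, 174, 156 and 211 CPM with vehicle and 87.6, 87.9, 90.4 and 101 CPM with panobinostat, a change of -0.85 (SE 0.14) without overlap. Aars for alanine, which also holds the motif, read 179, 254, 197 and 261 CPM against 114, 121, 139 and 153 CPM, a change of -0.75 (SE 0.15) without overlap, though its exons share 1326 bases with Exosc6 on the same strand. Iars for isoleucine, also with a motif, read 190, 235, 216 and 272 CPM against 135, 136, 149 and 149 CPM, a change of -0.67 (SE 0.12) without overlap. Tumours of the panobinostat group differed little from each other in Yars and Iars, while Aars ran from 114 to 153 CPM. Hars for histidine changed by -0.77, Farsa for phenylalanine by -0.71, Lars for leucine by -0.67, Mars for methionine by -0.66, Kars for lysine by -0.64 and Dars for aspartate by -0.63. Sars for serine changed by -0.54 and Nars for asparagine by -0.39, also with no overlap. Cars for cysteine changed by -0.39 with overlap (limma adjusted p = 0.0441). The Cars call was lost without any 1 of panobinostat libraries 1, 2 and 3 or vehicle libraries 2, 3 and 4 (adjusted p from 0.0654 to 0.115, range over 19 alternatives 0.0042 to 0.115). It was also lost without panobinostat libraries 3 and 4 together (0.09), without the variance trend, with read totals and with quantile normalization. The Nars call ended with quantile normalization (-0.11, adjusted p = 0.222).

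There was no call for 6 of the 20. Tars for threonine holds a motif 15 bases before its RefSeq start site. It read 72.2, 91.7, 88.3 and 97.2 CPM with vehicle and 82.8, 85.2, 90.4 and 95.8 CPM with panobinostat. All 4 panobinostat tumours lay inside the vehicle range. The change was 0.03 with a 95% confidence interval of -0.22 to 0.27. Wars for tryptophan (0.09, interval -0.31 to 0.49) and Rars for arginine (0.06, interval -0.25 to 0.36) also had intervals on both sides of 0, and the sign of these 3 changes turned with the libraries or scaling used. Qars for glutamine (-0.09, interval -0.31 to 0.13) and Farsb, the second phenylalanine subunit (-0.18, interval -0.49 to 0.12), completed this set with Eprs.

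Eprs, a fused enzyme for glutamate and proline, was decided by 1 tumour. It read 195, 403, 410 and 402 CPM with vehicle and 261, 275, 302 and 312 CPM with panobinostat. Vehicle tumour 1 lay below all 7 other tumours, whereas vehicle tumours 2 to 4 lay above every panobinostat tumour. The change was -0.24 (SE 0.23, limma adjusted p = 0.388) with all libraries and -0.50 without vehicle library 1 (limma adjusted p = 0.00207, range over 19 alternatives 0.00207 to 0.657).

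The counts were close between the usual divisions of the synthetases, which were not tested against each other. Of all tested genes 32.4% were lower, and of those at least as abundant as Cars 50.7% were. Of the 10 class I enzymes, whose catalytic core is a Rossmann fold, 6 were lower (median -0.53). Of the 10 class II enzymes 8 were lower (median -0.64). Among the 8 genes whose products sit in the multisynthetase complex 5 were lower (median -0.64), and of the 12 outside it 9 were lower (median -0.63). Of 12 often reported as ATF4 targets 9 were lower (median -0.60), and of the 8 others 5 (median -0.64). Vars, with the largest change, is among the 8. The complex also holds 3 scaffold proteins, and transcripts of all 3 were lower. They changed by -1.21 (SE 0.14) for Eef1e1, -0.85 (SE 0.19) for Aimp2 and -0.47 (SE 0.12) for Aimp1.

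Calls were spread over genes with and without the motif. Of the 9 genes with the motif 5 were lower and none higher, and of the 15 with a promoter entry but no match 9 were lower and 2 higher. Over all tested genes with a promoter entry, 28.1% of the 331 with the motif were lower and 33.2% higher, and 32.8% of the 11205 without it were lower and 32.7% higher. Trib3, Chac1, Slc7a11 and Tars, whose matches are printed above, had no call, while Phgdh was higher with no match in its window.

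Levels of different genes were compared as CPM per kilobase of merged exon. Gars had the highest level of the synthetases in vehicle tumours at 106 ± 21.5, followed by Vars at 75.1 ± 13.5 and Kars at 62.7 ± 11.5 (SD, n = 4). Cars was lowest at 11.8 ± 2.31, below Tars at 14.8 ± 1.82 and Eprs at 19.5 ± 5.80. Neighbours in this order lay within the larger of their SDs of each other, except Gars and Vars at the top and Tars and Cars at the bottom. After panobinostat the level was 49.3 ± 3.17 for Gars, 43.8 ± 4.29 for Rars, 39.8 ± 3.12 for Kars and 28.3 ± 2.75 for Vars. Rars stood second in this order and had no call. The median of the 20 genes was 37.5 CPM per kilobase in vehicle and 27.1 in panobinostat tumours. With the length of the longest transcript the medians were 54.9 and 37.1, Gars remained first, Vars and Kars changed places, and Eprs moved from rank 18 to rank 7.

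**Figure D2:**
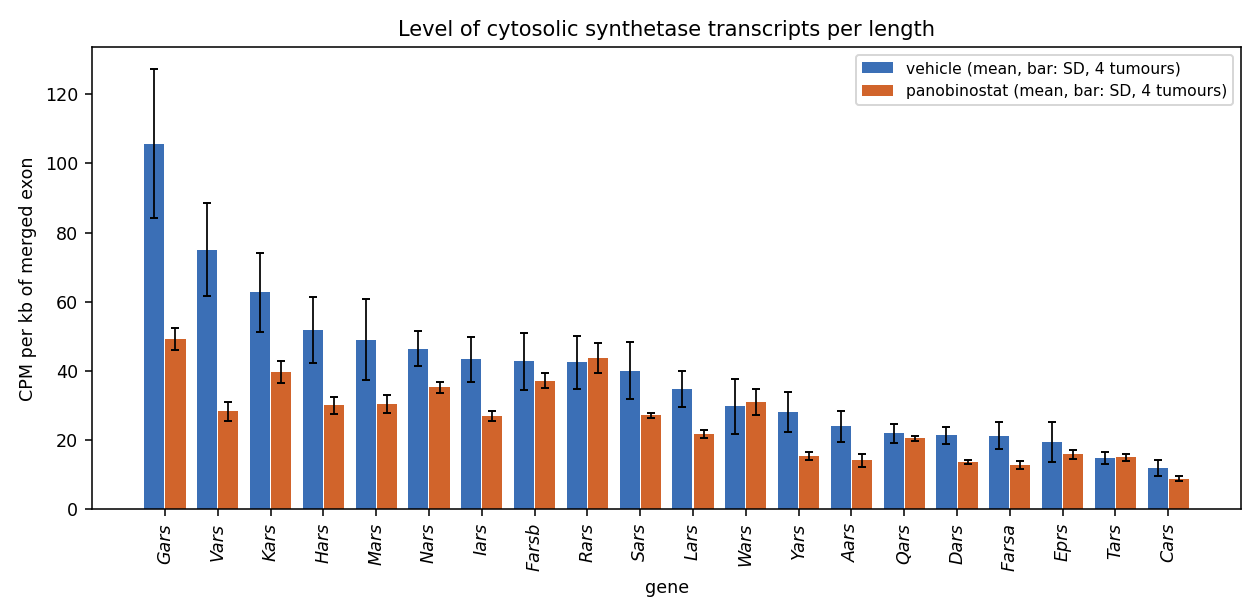
Level of each cytosolic synthetase gene in CPM per kilobase of merged exon (bars: mean of 4 tumours, error bars: SD), ordered by the vehicle mean. The vehicle levels run from 106 for Gars to 11.8 for Cars. The panobinostat means of Rars, Wars, Tars, Qars, Farsb and Eprs lie within the vehicle SD of their vehicle means.

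Within each group the synthetases ranked the tumours alike. Vehicle tumour 4 was the highest of its group for 18 of the 20 genes and vehicle tumour 1 the lowest for 15. With panobinostat, tumour 4 was the highest for 16 and tumour 1 the lowest for 13. The summed level of the 20 genes was 3081, 3970, 3432 and 4489 CPM in vehicle tumours and 2321, 2365, 2556 and 2667 CPM in panobinostat tumours. These sums did not overlap. The summed sympathoadrenal markers were 3048, 3105, 3222 and 3566 CPM in vehicle tumours and 1793, 1475, 1595 and 2041 CPM in panobinostat tumours. Tumour 4 was the highest of each group in both sums, but the order of vehicle tumours 2 and 3 was reversed, and panobinostat tumour 1, lowest for the synthetases, was second highest for the markers. Panobinostat library 4 also held the most liver and pancreas transcripts. The part of tumour cell share in the synthetase levels was not tested.

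Ratios of partner genes within a tumour were compared by a two-sided exact permutation test. The phenylalanine enzyme is built from 2 different subunits, and the log2 ratio of Farsa to Farsb was -0.09, -0.22, -0.33 and -0.20 with vehicle and -0.74, -0.84, -0.70 and -0.67 with panobinostat. Every panobinostat ratio was lower, with a difference of -0.53. Exons of Farsb share 248 bases with Sgpp2 on the opposite strand. Mitochondria use their own set of synthetases, most of them encoded by separate nuclear genes, and 14 members were set against their mitochondrial counterpart. In 9 of the 14 the ratio of cytosolic to mitochondrial transcript did not overlap between the groups. For single genes 59.7% of all tested did not overlap, and no share over other gene pairs is given here. It was lower with panobinostat in 5 and higher in 4. With the subunit pair and the serine pathway pairs, 12 of 19 ratios had an adjusted p below 0.05. All 12 had an exact permutation p of 0.0286, the smallest that 70 assignments of 4 and 4 tumours allow, and an adjusted p of 0.0452 (Benjamini-Hochberg over the 19). In 5 of the 12, the serine pathway pairs and those of Lars, Mars and Nars, 1 gene was higher and the other lower without overlap, so the separation of their ratios adds nothing to the changes of the genes. The other 7 were Farsa to Farsb and the pairs of Cars, Hars, Rars, Sars, Tars and Wars. Their adjusted p was reached with those 5 pairs counted in the adjustment. No call is therefore drawn for the 7, and their ratios are given as values.

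Ratios fell for Lars to Lars2 (difference -1.57), Nars to Nars2 (-1.29), Mars to Mars2 (-1.24), Hars to Hars2 (-0.62) and Cars to Cars2 (-0.39). The Nars ratio read 3.79, 4.30, 3.69 and 3.75 with vehicle and 2.62, 2.53, 2.58 and 2.62 with panobinostat. In 3 of these pairs the mitochondrial gene was higher, with changes of 0.90 (SE 0.15) for Nars2, 0.90 (SE 0.23) for Lars2 and 0.58 (SE 0.19) for Mars2. Hars and Hars2 share 195 exon bases on opposite strands. Ratios rose for Wars to Wars2 (0.83), Tars to Tars2 (0.80), Sars to Sars2 (0.70) and Rars to Rars2 (0.49). The Tars ratio read 0.30, 0.52, 0.54 and 0.37 with vehicle and 1.14, 1.19, 1.25 and 1.36 with panobinostat. In these 4 pairs the mitochondrial transcript fell, with changes of -0.74 (SE 0.17) for Wars2, -0.78 (SE 0.10) for Tars2, -1.24 (SE 0.20) for Sars2 and -0.43 (SE 0.10) for Rars2. For Vars the ratio to Vars2 was nearly equal in the 2 groups (difference 0.03, exact permutation adjusted p = 0.543), and Vars2 itself changed by -1.43 (SE 0.12). The Iars ratio missed the threshold (-0.68, adjusted p = 0.0776), as did those of Aars, Dars and Yars. Of all 17 mitochondrial synthetase genes 10 were lower and 3 higher, with a median of -0.44, against 32.4% and 31.2% of all tested genes. The 3 higher ones, Lars2, Mars2 and Nars2, and the partners Wars2 and Rars2 were named after their values were seen.

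**Figure D3:**
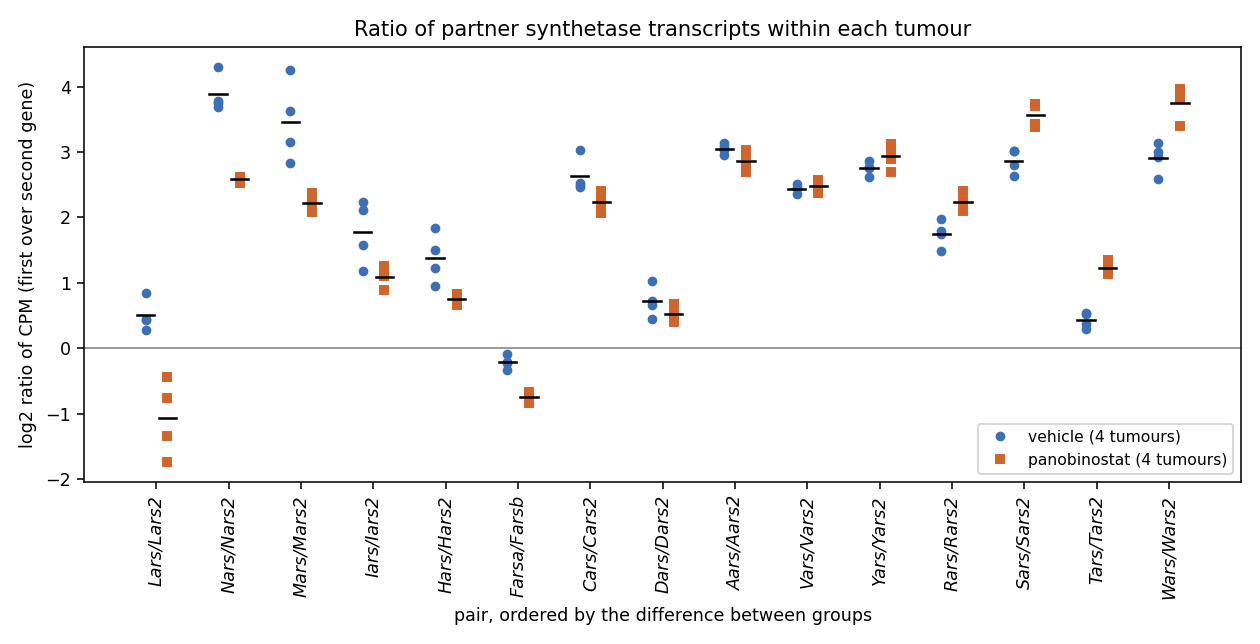
Log2 ratio of CPM between partner synthetase genes in each tumour (circles vehicle, squares panobinostat, lines the group means), ordered by the difference between groups. Ratios of Lars, Nars and Mars fell by over 1 on the log2 scale, those of Rars, Sars, Tars and Wars rose, and those of Vars overlap.

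The kinases, phosphatases and their regulators upstream of ATF4 changed in both directions. Of 9 genes 2 were higher and 3 lower, with a median of 0.03, against 31.2% and 32.4% of all tested genes. Impact, which restrains the amino acid sensing kinase GCN2, read 100, 88.9, 79.8 and 64.9 CPM with vehicle and 42.4, 41.2, 37.3 and 39.2 CPM with panobinostat. Its change was -1.04 (SE 0.13, limma adjusted p = 1.49e-04). Gcn1l1, the activator of the same kinase, changed by -0.61 (SE 0.11), and Ppp1r15b, a constitutive subunit of the eIF2alpha phosphatase, by -0.50 (SE 0.11). Higher were the haem-regulated kinase Eif2ak1 (0.56, SE 0.12) and the kinase of double-stranded RNA Eif2ak2 (0.60, SE 0.23). Ppp1r15b and Eif2ak2 are named with their values already known. Without panobinostat libraries 3 and 4 none of the 9 was called higher and 3 were lower, against 23.4% and 25% of all tested genes.

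Most of the other transcription factors of the pathway moved against Atf4. Of 8 genes 6 were higher and 1, Atf5, lower, with a median of 2.06. Of all tested genes 31.2% were higher and 32.4% lower. Nfe2l2, which encodes the oxidative stress factor NRF2, read 24.1, 13.9, 13.7 and 17.7 CPM with vehicle and 90.8, 107, 101 and 81 CPM with panobinostat. Its change was 2.48 (SE 0.19, limma adjusted p = 1.01e-05). Nupr1, a stress-induced chromatin protein, changed by 2.48 (SE 0.29) and Jdp2, a bZIP repressor that binds ATF sites, by 2.11 (SE 0.26). Atf5, a close relative of Atf4 that was named after its value was seen, changed by -0.80 (SE 0.20).

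Of 20 other genes known as ATF4 targets 7 were higher and 5 lower, shares near the 31.2% and 32.4% of all tested genes. Their median was 0.18, and Fgf21 was not analysed here. Bcat1, which transfers the amino group of branched-chain amino acids, read 244, 304, 289 and 359 CPM with vehicle and 62.8, 54.6, 59.7 and 61 CPM with panobinostat, a change of -2.32 (SE 0.12, limma adjusted p = 4.16e-06). Sesn2, a leucine sensor that restrains mTORC1, read 7.93, 8.99, 4.46 and 6.16 CPM with vehicle and 31, 35.5, 36.5 and 26.6 CPM with panobinostat, a change of 2.27 (SE 0.23). Both genes had groups far apart. Gpt2, which makes alanine in mitochondria, changed by 1.08 (SE 0.17). Among the 7 higher genes were Cth and Cbs of cysteine synthesis, named after their values were seen, and both were highest in panobinostat tumours 3 and 4. Cth read 4.64, 5.78, 16.8 and 70.7 CPM and Cbs 13.4, 8.84, 21.8 and 57.5 CPM in panobinostat tumours 1 to 4. These are also the libraries with the highest summed liver markers, and the part of liver tissue in those values was not tested.

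Of 16 other amino acid transporters 7 were higher and 5 lower, where all tested genes gave 31.2% and 32.4% (median 0.10, Slc38a5 not analysed here). Slc7a8 encodes LAT2, which shares the heavy chain Slc3a2 with LAT1. It read 21.7, 15.3, 16.7 and 16.8 CPM with vehicle and 70.5, 91.2, 82.2 and 63 CPM with panobinostat, a change of 2.12 (SE 0.15, limma adjusted p = 8.71e-06). Slc38a2, an importer of small neutral amino acids, read 324, 364, 341 and 338 CPM with vehicle and 157, 134, 122 and 140 CPM with panobinostat, a change of -1.31 (SE 0.10). Slc7a1, the importer of arginine and lysine, changed by -1.54 (SE 0.11). Groups did not overlap for any of these 3 genes. Without panobinostat libraries 3 and 4 the higher count of the list was 4 in place of 7, and the lower count was 5 as before, against 23.4% and 25% of all tested genes.

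**Figure D4:**
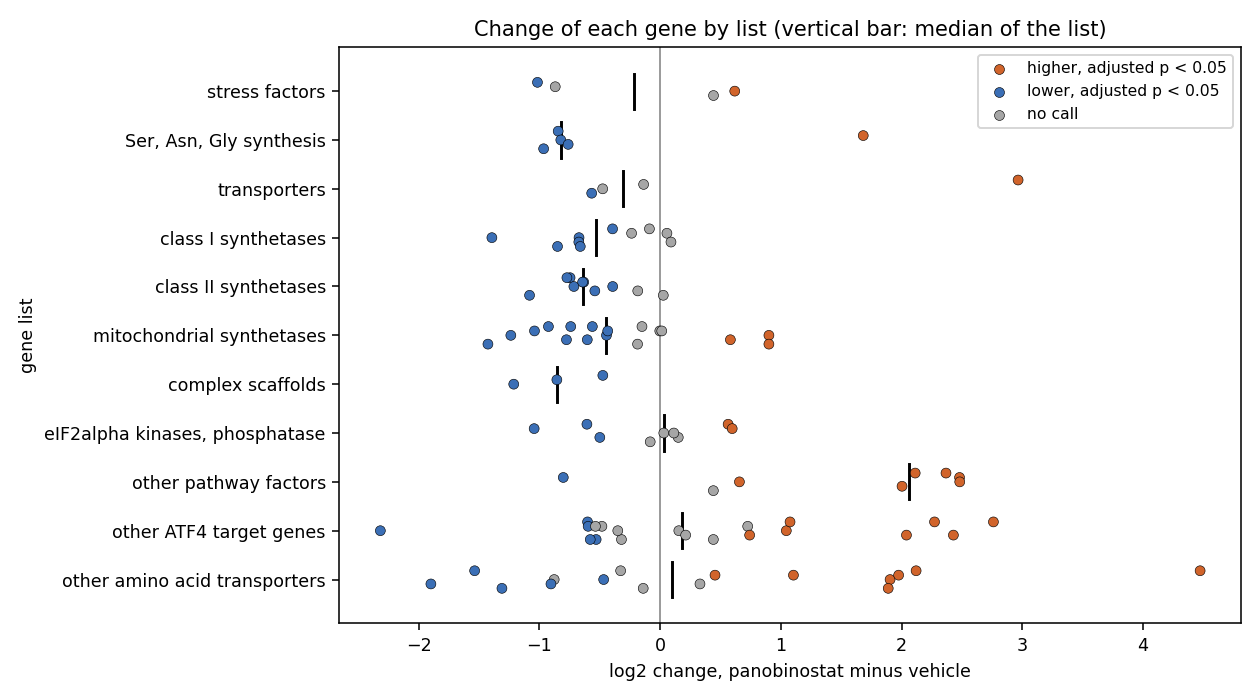
Log2 change of each tested gene (panobinostat minus vehicle) by list, with called genes in colour, genes without a call in grey and the list median as a vertical bar. The synthetase lists lie mostly left of 0, and the other pathway factors lie right of 0 with a median of 2.06 except for Atf5.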

How the data were processed

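Total RNA of 8 tumours was made into TruSeq libraries, per the labels' protocols. Per the submitters' processing notes, TopHat2, HTSeq, CASAVA 1.8.2 and limma were used with mm10. Neither annotation nor strand setting is given in the sources used here. The deposited values are log2 CPM, in which the authors added 0.5 read to each count, since 100% of values come back as whole reads within 0.001 read. Groups were taken from the labels, and replicate numbers only name the samples. The labels give no batch, and one that followed the groups cannot be told apart from treatment. The limma p-values set the group difference against the spread between animals within the groups, moderated over all tested genes. The permutation p-values place the difference among all assignments of tumours to groups. Identifiers were matched to GENCODE M21 (17228 of 17488), which gave symbols, coordinates and merged exon lengths. Genes that reached 1 CPM in 4 or more libraries were fitted with limma 3.58.1 (lmFit, eBayes with a variance trend) in R 4.3.3, without covariates, and adjusted over all 16157 tested genes. Intervals are at the 95% level. Ratios of partner genes were compared by two-sided exact permutation over 70 assignments (scipy 1.17.1) and adjusted over 19 pairs.

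The members, gene lists and pairs were chosen with earlier results of these data known. Named were all members, the 3 genes of each pathway list with the smallest adjusted p and, for cell type lists, the 2 with the largest change, of which some are given by list only. Of the motif matches 1 is not reported here. Others are said to be named after their values were seen. The fit was tested on simulated data. Alternatives were other filters, scalings, variance settings, thresholds and a pseudocount of 1 CPM, and leaving out libraries. Voom in limma on the recovered reads was added after seeing the data, in place of a planned count test, since the deposited unit is log2.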

Additional observations from a re-analysis of the deposited data

Results flagged for a closer look

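In 66 groups of 4 tumours (33 genes in 2 treatments), the highest and lowest values were compared with the rest, and 2 groups had a tumour far from its fellows. Chance gives this in about 1 of 20 groups. Psph was 13.3 CPM in panobinostat tumour 3 and 10.2 to 10.5 CPM in the other panobinostat tumours. Eprs was 195 CPM in vehicle tumour 1 and 402 to 410 CPM in the other vehicle tumours.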

How the results depend on the processing

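The 23 calls were recomputed under 21 alternatives each. Only Phgdh, Slc1a5, Vars and Gars passed in all of them. A test against a 1.5-fold change left 2802 genes higher and 2186 lower of all tested, 2 members lower and 2 synthetases lower. Leaving aside that test and the threshold of 0.01, 19 of 23 calls were kept under 19 alternatives, the exceptions being Ddit3, Slc7a5, Cars and Nars. Leaving out 1 library gave 18 to 22 members lower, 3 higher, and 13 to 15 synthetases lower. Quantile normalization made 1 synthetase higher, Rars (0.31, limma adjusted p = 0.0295). Longest transcripts gave median synthetase levels of 54.9 and 37.1 CPM per kilobase. Signs turned only for genes without a call: with quantile normalization Trib3 (-0.21), Slc3a2 (0.10), Eprs (0.11), Qars (0.16) and Farsb (0.016), with library weights Trib3 (-0.095), with read totals Qars (0.031), with median centring Rars (-0.061), Wars (-0.027) and Tars (-0.091), and without panobinostat libraries 3 and 4 Rars (-0.066), Wars (-0.041) and Tars (-0.048). Leaving out 1 library gave -0.030 (without vehicle 1) to 0.17 for Rars, -0.018 (without vehicle 1) to 0.26 for Wars and -0.062 (without vehicle 1) to 0.081 for Tars, which was also below 0 without panobinostat 4 (-0.012). The cause was not tested. Relative to the main scale, the median change of all genes moved by -0.12 with quantile normalization, -0.12 with median centring and 0.12 with read totals. No paired analysis was possible because the replicate numbers follow the order of the accessions and pair nothing. The planned count test was not run, and voom on recovered reads took its place. For ratios, fewer than 4 tumours a group cannot reach 0.05. At 1 CPM a gene rests on about 20 reads, which limits Trib3 and Chac1.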
